A study of Bos taurus with 8 samples.

Results

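The EGF family was followed through bovine muscle and the cultures grown from it by 8 genes, 5 ligands (EREG, AREG, HBEGF, BTC and TGFA) and 3 receptors (EGFR, ERBB2 and ERBB3). They were chosen by symbol, 8 of the 16828 genes with a symbol among 21880 gene rows, and their unique molecular identifier (UMI) counts were summed per donor animal, cell type and timepoint. Ligands of this family are made as membrane-anchored precursors that metalloproteases of the ADAM type release from the cell surface. A released ligand pairs EGFR with itself or with a related receptor and so switches on the RAS-MAPK and PI3K pathways. ERBB2 has no known ligand and works as a partner, and ERBB3 has a weak kinase and relies on its partner to signal. In the gene order of the RefSeq bovine table (assembly ARS-UCD2.0), EREG, AREG and BTC are consecutive coding genes on chromosome 6, next to a further ligand gene, EPGN.

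The samples were mononucleated cells from the semitendinosus muscle of 10 Belgian Blue cattle, 5 calves and 5 adults, released with collagenase. Timepoint 1 was fresh unsorted muscle, Timepoint 2 the adherent unsorted cells at passage 0, after 72 h in a serum-free medium, and Timepoints 3, 4 and 5 were cultures at passages 2, 5 and 8. In the last 3, 3 donors were kept unsorted, 3 were sorted satellite cell (SC) cultures and 3 were sorted fibro-adipogenic progenitor (FAP) cultures, and donor 3 was seen only at Timepoint 1. The paper's methods give fibronectin as the coating for unsorted cells, laminin for SCs and collagen for FAPs. All donors of a timepoint were pooled in 1 droplet library and told apart by genotype, so timepoint and library cannot be told apart. Neither can the sort, the coating and the donor.

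The 5 libraries held between 2772 and 10405 cells, and the median cell had 4184 UMIs at Timepoint 1 and 18340 to 27239.5 later. Pairs of libraries had 4 to 29 cell barcodes in common. The cell types are the authors' own annotation. At Timepoint 1, 6 of 8 SC markers, 3 of 5 FAP markers, 5 of 5 markers of vascular endothelial cells (VECs), 5 of 5 of lymphatic endothelial cells (LECs), 6 of 6 of smooth muscle and mesenchymal cells (SMMCs) and 4 of 6 of monocytes/macrophages were highest in the cell type they name. At Timepoint 2 this held for 5 of 8 SC markers (not for CHRDL2, ITGA7 and DES), 4 of 5 VEC markers and all those of FAPs, LECs, SMMCs and monocytes/macrophages. Levels below are the gene's UMIs per 1000000 UMIs of a donor's cells of 1 type (CPM), used where a donor had at least 10 such cells. Because the annotation rests on the same expression values, levels between cell types are described with no test. Between timepoints a gene was called changed where edgeR's quasi-likelihood test gave an adjusted p under 0.05 and the log2 fold change was beyond 1 in either direction.

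EREG (epiregulin, ENSBTAG00000010273) was the member that changed most between muscle and passage 0. In muscle, not a UMI of EREG was found in the SCs or FAPs of 10 donors. At passage 0 the SCs of 9 donors had 114 CPM at the lowest, 176 at the median and 296 at the highest. The FAPs of the same donors had 8.07, 16.0 and 29.2 CPM. Every donor was thus above its own muscle sample, and the groups did not overlap in either cell type. Against the limit set by 3 counts over all muscle cells of the type, EREG was at least 163-fold higher in SCs and at least 43.5-fold higher in FAPs. Both changes were called, but muscle held no count and EREG passed the low-count filter only through passage 0. The adjusted p-values are therefore not given.

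Among cell types with donor levels at passage 0, the order of EREG was SCs (179 ± 54.9 CPM, SD, n = 9), monocytes/macrophages (28.2 ± 14.4, n = 7), FAPs (17.8 ± 6.40, n = 9), VECs (8.93 ± 3.23, n = 9), SMMCs (8.86 ± 5.90, n = 7) and LECs (7.35 ± 6.33, n = 7). SCs stood apart from all of them, with a range that touched none of the others and 10.1 times the mean of FAPs. All other neighbours in this order overlapped. Glial cells, too few per donor for a donor level, held 13 EREG UMIs in 48 cells, a pooled level of 31.5 CPM (95% exact Poisson interval 16.8 to 53.9, counting error only), near that of monocytes/macrophages. In muscle, EREG UMIs were found in monocytes/macrophages alone, in 4 of 10 donors, with 24 UMIs in 9 of 403 cells. The absence of a count allows up to 1.07 CPM in muscle SCs and 0.388 in FAPs (3 counts over all cells of the type), but up to 30.4 CPM in the few neutrophils. In VECs and SMMCs, where muscle also gave no UMI, passage 0 was at least 12.8-fold and 4.96-fold higher. The low levels of VECs, SMMCs and LECs were alike. The part of free RNA from SCs was not tested in them, nor in FAPs, monocytes/macrophages or glial cells of the same library.

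Counted by cell, 76.7% of 2282 SCs had an EREG UMI at passage 0, against 22.0% of 5756 FAPs and 9.51% of 831 VECs, endothelial cells taken here as the comparison. The median depths were 18203, 24188 and 12856 UMIs per cell. With each cell thinned to 2000 UMIs the shares were 26.8% in SCs (95% exact binomial interval 24.96% to 28.6%, counting error only), 4.49% in FAPs and 1.93% in VECs. The order of the 3 types was the same with and without thinning.

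From passage 0 to passage 2, EREG moved in opposite directions in the 2 cell types that remained. SCs fell to 32.8, 60.7 and 137 CPM (lowest, median and highest of 9 donors), lower in 9 of 9 donors, with a log2 fold change of -1.32 (SE 0.26, adjusted p = 4.19e-04). FAPs were at 14.4, 32.7 and 53.4 CPM in 8 donors, higher in 8 of 8, with a log2 fold change of 1.00 (SE 0.24, adjusted p = 0.00123), just short of the size needed for a call. The difference of the changes, SCs minus FAPs, was -2.27 on the log2 scale (SE 0.37, adjusted p = 6.28e-05), in a fit that called 8.40% of 11569 genes. SCs were still above FAPs in 8 of 8 donors at Timepoint 3, but the ranges now overlapped and the ratio of means was 2.13.

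The SCs of the culture groups stood in the same order before and after the sort. At passage 2 the SCs of the 3 unsorted cultures had 66.7, 111 and 137 CPM, those within the 3 FAP cultures 51.4, 60.7 and 70.5, and those of the 3 SC cultures 32.8, 44.5 and 55.6. At passage 0, before any sort, the SCs of the same donors had 185, 228 and 296, then 143, 157 and 179, then 114, 135 and 176 CPM. The donors later kept unsorted had the highest mean at both timepoints and the donors later sorted for SCs the lowest, with no overlap between these 2 groups, while the donors of FAP cultures overlapped with a neighbouring group at each. This is given with no test, since sort, coating and donor cannot be told apart.

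EREG then showed no called change to passage 5 or passage 8. Its mean in SCs was 58.1 ± 29.7 CPM at Timepoint 4 (n = 7), and the 4 donors with enough SCs at Timepoint 5 had 97.8, 121, 199 and 201 CPM. All 4 of these were above their own Timepoint 4 value, with a log2 fold change of 1.35 (SE 0.40, adjusted p = 0.143). With donor as a block the same change was 1.37 with an adjusted p of 0.00315, and this would be a call. In FAPs the means were 33.1 ± 19.7 at Timepoint 4 and 62.8 ± 22.8 at Timepoint 5 (n = 9 each), higher in 9 of 9 donors, with a log2 fold change of 0.83 (adjusted p = 0.126).

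**Figure D1:**
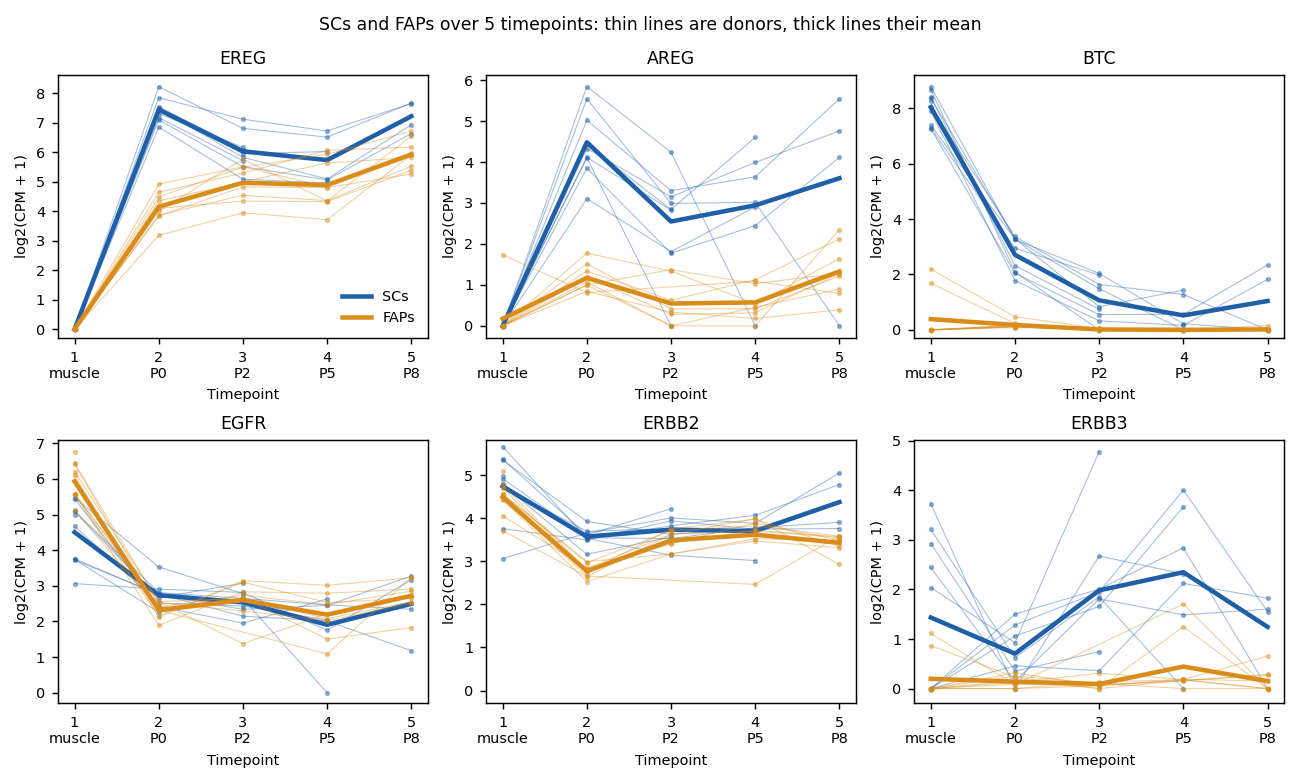
Level of 6 members in SCs and FAPs at each timepoint, on a log2(CPM + 1) axis, with 1 thin line per donor and the thick line as the mean of donors. EREG leaves 0 in both cell types at Timepoint 2 and BTC falls from 280 CPM in muscle SCs, while EGFR lines of SCs and FAPs lie on each other from Timepoint 2 on.

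BTC (betacellulin, ENSBTAG00000004237), which binds EGFR and ERBB4, fell in SCs from muscle to passage 0, where EREG rose. It was a satellite cell gene in muscle, where the SCs of 10 donors had 153, 286 and 438 CPM at the lowest, median and highest. Myocytes, too few per donor for a donor level, held 9 BTC UMIs in 45 cells, a pooled level of 54.1 CPM (95% exact Poisson interval 24.8 to 103, counting error only). LECs averaged 12.1 ± 15.0 CPM over 4 donors from 3 UMIs in all, and FAPs 0.577 ± 1.26. No SC value overlapped the range of LECs or FAPs. At passage 0 the SCs of 9 donors had 2.43, 6.73 and 9.36 CPM, below muscle in 9 of 9 donors with no overlap. The log2 fold change was -5.64 (SE 0.30), a level 49.8 times lower. The change was called, but BTC passed the low-count filter only through muscle, so its adjusted p-value is not given.

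BTC fell again in SCs to passage 2, to 1.35 ± 1.17 CPM (n = 9), lower in 9 of 9 donors, with a log2 fold change of -2.64 (SE 0.50). This too was called, but BTC passed the filter only through passage 0, and the adjusted p-value is not given. At passages 5 and 8 it was at 0.554 ± 0.711 (n = 7) and 1.65 ± 2.01 CPM (n = 4), from 41 and 4 UMIs counted over the SCs of all 9 donors. The share of SCs with a BTC UMI was 45.6% in muscle and 8.28% at passage 0, at median depths of 3861 and 18203 UMIs, and 34.3% and 1.10% after thinning. In muscle VECs the share was 0.686%, and 0.482% after thinning. The neighbouring genes EREG and BTC thus changed in opposite directions in SCs at the same step.

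AREG (amphiregulin, ENSBTAG00000018134), the gene between them, followed EREG in SCs at lower levels. Muscle SCs had no AREG UMI, and at passage 0 the 9 donors had 7.61, 19.1 and 56.4 CPM, at least 23.0-fold higher. AREG did not pass the low-count filter for this comparison. With no filter it was called, but muscle held no count, so the adjusted p-value is not given. It fell to passage 2, to a mean of 6.52 ± 5.15 CPM, lower in 9 of 9 donors, with a log2 fold change of -1.87 (SE 0.41, adjusted p = 0.00126). Among the 3 donors of unsorted cultures alone the change was -2.13 and missed the threshold (adjusted p = 0.0562). At passages 5 and 8 the means were 9.66 ± 7.67 (n = 7) and 22.0 ± 19.1 CPM (n = 4), with no call. FAPs had far less, 1.31 ± 0.547 CPM at passage 0, and SCs were above FAPs in 9 of 9 donors there without overlap.

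Outside the culture-expanded types AREG belonged to myeloid cells of muscle. The muscle monocytes/macrophages of 10 donors had 0 CPM at the lowest, 22.2 at the median and 502 at the highest, so that the donors differed widely, with 222 UMIs from 31 of 403 cells and as many as 47 in 1 cell. Neutrophils had enough cells in 1 donor only, at 1320 CPM. Over all donors their 51 cells held 117 AREG UMIs, a pooled level of 1185 CPM (95% exact Poisson interval 980 to 1420, counting error only). Donors 4 and 6 held most of these (58 and 44 UMIs), and donors 1, 5 and 7 held none. At passage 0 monocytes/macrophages averaged 15.8 ± 12.9 CPM in 7 donors, lower in 5 of 7, and no change was called without the filter (adjusted p = 0.143).

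HBEGF (heparin-binding EGF-like growth factor, ENSBTAG00000021766) was high in macrophages of muscle and, at passage 0, in VECs and glia. In muscle, monocytes/macrophages of 10 donors had 83.9, 151 and 298 CPM, above VECs in 10 of 10 donors with no overlap. At passage 0 their 7 donors averaged 11.9 ± 9.35 CPM, lower in 7 of 7, with a log2 fold change of -3.78 (SE 0.44). VECs went the other way, from 6.45, 19.2 and 65.5 CPM in muscle (10 donors) to 36.9, 60.1 and 75.5 CPM at passage 0 (9 donors), with a log2 fold change of 1.37 (SE 0.25). They rose in 8 of 9 donors and the ranges overlapped. Both changes were called, but in each type HBEGF passed the low-count filter only through the timepoint where it was higher. The adjusted p-values are therefore not given. Glial cells at passage 0 held 32 HBEGF UMIs in 48 cells, a pooled level of 77.6 CPM (95% exact Poisson interval 53.1 to 110, counting error only), with no donor level. The difference of the changes, VECs minus monocytes/macrophages, was 5.20 (SE 0.53, adjusted p = 3.59e-10), in a fit that called 20.2% of 5295 genes.

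The order of these 2 types therefore turned, with VECs 5.02 times above monocytes/macrophages at passage 0, in 7 of 7 donors. After thinning, 22.1% of muscle monocytes/macrophages and 4.34% of muscle VECs had an HBEGF UMI, and 2.21% and 10.9% did at passage 0. The shares before thinning were 43.7%, 6.78%, 9.22% and 42.8% in the same order, and in FAPs, the comparison type, 2.03% in muscle and 1.23% at passage 0. In SCs and FAPs HBEGF averaged at most 2.95 CPM in muscle and under 1 CPM in every culture.

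TGFA (transforming growth factor alpha, ENSBTAG00000000783) was not found in any cell type at Timepoints 1 and 2, where the counts allow up to 1.07 CPM in muscle SCs and 0.0691 CPM in passage 0 SCs, and it averaged at most 0.317 CPM later. In FAPs at Timepoint 5 it was found in 9 of 9 donors, at 0.270 ± 0.127 CPM from 12 UMIs. It passed the low-count filter in none of the 12 comparisons.

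**Figure D2:**
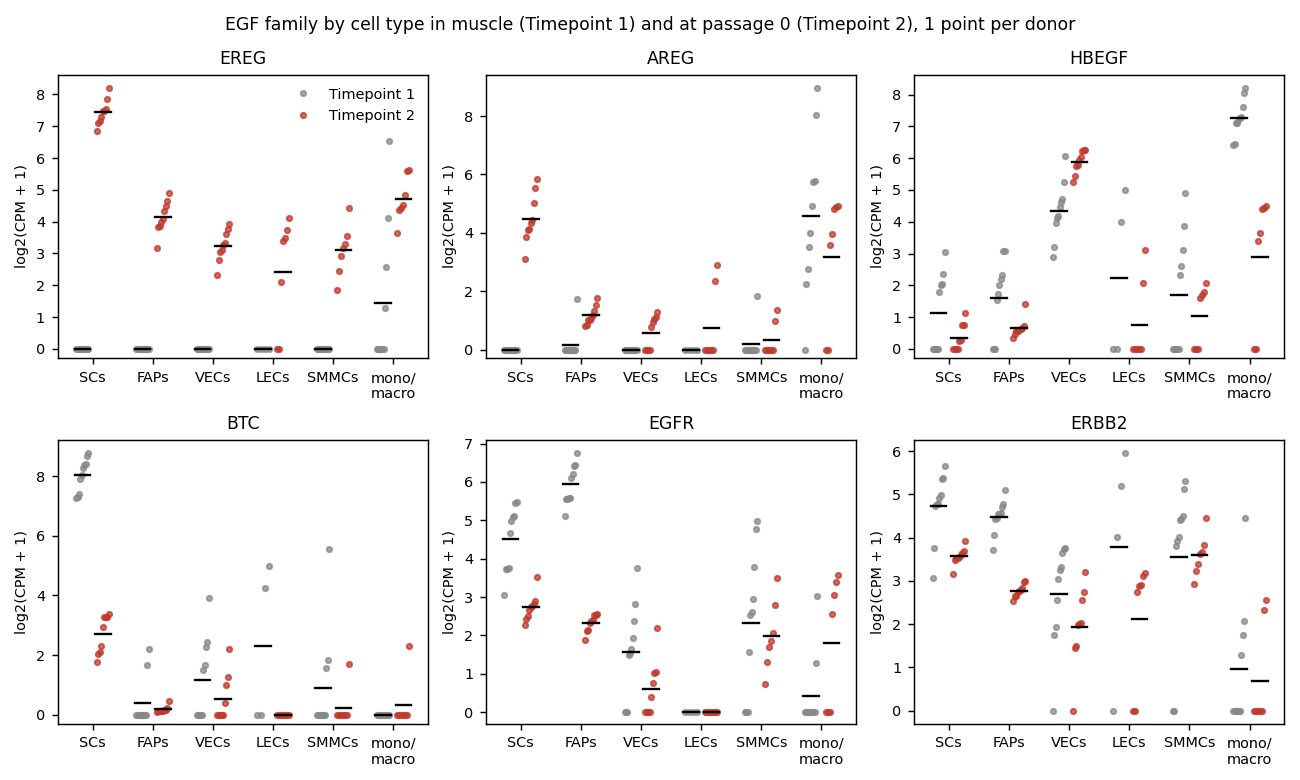
Level of 6 members in 6 cell types, grey for muscle (Timepoint 1) and red for passage 0 (Timepoint 2), on a log2(CPM + 1) axis, with 1 point per donor and a bar at the mean. BTC and EREG trade places in SCs, HBEGF is highest of the 6 in monocytes/macrophages in muscle (166 CPM) and in VECs at passage 0 (59.5 CPM), and EGFR is lower in FAPs and SCs at passage 0.

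Among the receptors, EGFR (ENSBTAG00000011628), which binds all 5 ligands, was a gene of FAPs in muscle and fell there at passage 0. Muscle FAPs of 10 donors had 33.6, 57.5 and 107 CPM. SCs had 7.35, 27.6 and 43.4 CPM, lower than FAPs of the same animal in 10 of 10 donors although the ranges overlapped. SMMCs averaged 8.82 ± 11.1, lymphocytes 3.84 ± 6.47, VECs 3.14 ± 3.80 and monocytes/macrophages 0.858 ± 2.25 CPM (n = 10 each), all overlapping with their neighbours, and LECs had no count. Neutrophils, tenocytes and myocytes held 2 or 3 EGFR UMIs each. At passage 0 FAPs of 9 donors had 2.71, 4.16 and 4.90 CPM, with no overlap with muscle, and the log2 fold change was -3.76 (SE 0.17), a level 13.6 times lower. The change was called, but EGFR passed the low-count filter only through muscle, so its adjusted p-value is not given.

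In SCs at passage 0 EGFR was at 3.80, 5.73 and 10.5 CPM, lower in 9 of 9 donors. It did not pass the filter there, and with no filter the log2 fold change was -1.84 (adjusted p = 1.41e-07). The difference of the changes, SCs minus FAPs, was 1.77 (SE 0.30, adjusted p = 7.54e-06), in a fit that called 20.0% of 8751 genes and that tested EGFR although SCs alone did not pass the filter. The order of the types was lost with it, since SCs were above FAPs in 8 of 9 donors at passage 0, at overlapping levels. From Timepoint 2 to Timepoint 5 EGFR stayed between 3.24 and 5.87 CPM on average in both cell types and gave no call. FAPs had a log2 fold change of 0.67 to passage 2 (SE 0.17, adjusted p = 0.00177), under the size needed.

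ERBB2 (ENSBTAG00000021798) was spread over most cell types. In muscle, SCs averaged 28.8 ± 12.6 CPM (n = 10), LECs 28.1 ± 26.6 (n = 4), FAPs 22.1 ± 5.76 (n = 10) and SMMCs 17.7 ± 12.4 (n = 10), all overlapping. The 4 LEC donors held only 0 to 4 ERBB2 UMIs each. VECs were at 7.14 ± 4.47 and monocytes/macrophages at 2.81 ± 6.52 CPM (n = 10 each). Lymphocytes had no ERBB2 count (n = 10). Glia, myocytes and tenocytes, with no donor level, held 2 to 4 ERBB2 UMIs each. FAPs fell from 12.1, 22.4 and 33.3 CPM to 4.77, 5.81 and 6.97 CPM at passage 0, lower in 9 of 9 donors with no overlap, with a log2 fold change of -1.80 (SE 0.13, adjusted p = 8.55e-12).

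FAPs then regained part of this by passage 2, at 8.00, 10.5 and 12.5 CPM, higher in 8 of 8 donors, with a log2 fold change of 1.02 (SE 0.10, adjusted p = 1.74e-07). With donor as a block it was 0.97 (adjusted p = 5.93e-05), just under the size needed. In SCs the passage 0 mean was 10.99 ± 1.65 CPM (n = 9), lower than muscle in 8 of 9 donors, and only the fit with no filter tested it (log2 fold change -1.17, adjusted p = 6.52e-06). SCs had more ERBB2 than FAPs in 9 of 9 donors at passage 0 without overlap, and in the 4 donors of Timepoint 5, also without overlap, but in 3 of 7 donors at Timepoint 4.

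ERBB3 (ENSBTAG00000010444) was low in the main cell types. Glial cells, too few per donor for a donor level, held 20 ERBB3 UMIs in 12 muscle cells, a pooled level of 500 CPM (95% exact Poisson interval 305 to 771, counting error only), and 11 UMIs in 48 cells at passage 0. In SCs the mean was 3.46 ± 4.35 CPM in muscle (n = 10), 0.727 ± 0.628 at passage 0 (n = 9), 5.10 ± 8.14 at passage 2 (n = 9), 6.00 ± 5.46 at passage 5 (n = 7) and 1.63 ± 1.12 at passage 8 (n = 4). The rise from passage 0 to passage 2 was seen in 8 of 9 donors and was called only with no filter (log2 fold change 2.22, adjusted p = 0.0168). Donor 8 alone had 26.4 CPM at passage 2, against 0.284 to 5.38 in the other donors. FAPs averaged at most 0.489 CPM at every timepoint.

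The members' counts, with the share called over all genes beside them, were as follows. From muscle to passage 0, FAPs had 3 of 8 members past the filter, with 1 called higher and 2 lower, where 43.4% of all 9208 tested genes were called. SCs had 2 tested, 1 higher and 1 lower, beside 34.3% of 5221 genes. The 1 member tested was called higher in VECs and lower in monocytes/macrophages, beside 35.1% of 5896 and 34.6% of 2896 genes. No member passed the filter in SMMCs or LECs, where 36.4% and 29.6% of genes were called. Apart from ERBB2 in FAPs, each tested member passed the filter only through the timepoint where it was higher. These counts therefore do not show that the family changed more often than other genes.

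From passage 0 to passage 2, 1 of 4 tested members was called in FAPs, beside 19.3% of genes, and 3 of 5 in SCs, all lower, beside 10.0% of genes. BTC, among those in SCs, passed the filter only through passage 0. Between passages 2 and 5 none of 3 tested members was called in FAPs (0.656% of genes called) and none of 5 in SCs (0.440%). Between passages 5 and 8 none of 3 was called in either cell type (0.445% in FAPs, 0.456% in SCs). With donor as a block, the genes called in these last 4 comparisons rose from 76, 43, 46 and 34 to 434, 231, 120 and 97. EREG in SCs between passages 5 and 8 was among the calls with the block, as given above.

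**Figure D3:**
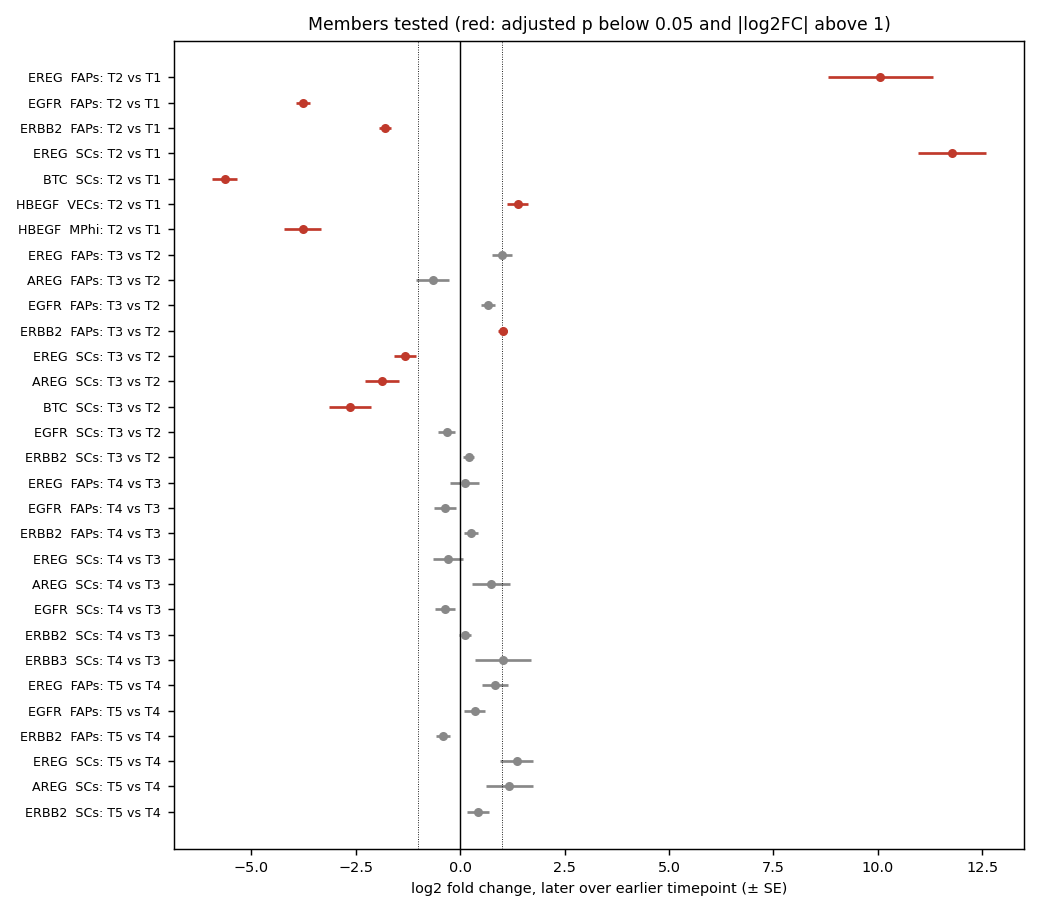
Log2 fold change of each member that passed the low-count filter, with its standard error as a bar, for the 12 comparisons (T for Timepoint, MPhi for monocytes/macrophages). The 7 tests against muscle are all called (red), beside 34.3% to 43.4% of all genes. Apart from ERBB2 in FAPs, they passed the filter only through the timepoint where the gene was higher. The 7 calls are therefore not read against that share. Most members did not pass the filter there. Between passages 0 and 2, 4 more are called, beside 19.3% (FAPs) and 10.0% (SCs) of all genes. The later ones are not called (grey), beside 0.440% to 0.656% of all genes. The 2 EREG values against muscle rest on 0 counts and depend on the fit's prior.

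Among the other ligands NRG1 was measurable, and the rest and the receptor ERBB4 had few counts or none. EGF was not among the symbols, EPGN had 6 UMIs in all cells, NRG3 none, NRG2 18, NRG4 32 and ERBB4 19. NRG1, a neuregulin that binds ERBB3 and ERBB4, was listed under 2 gene identifiers. The one with 1209 UMIs (ENSBTAG00000004150) rose in FAPs from passage 0 to passage 2, from 0.655 ± 0.673 to 1.48 ± 1.36 CPM (log2 fold change 1.74, SE 0.46, adjusted p = 0.00290), and was at 6.64 ± 3.26 CPM at passage 8, where the change from passage 5 was not called (adjusted p = 0.143). The other identifier (ENSBTAG00000054057), with 765 UMIs, was at 4.35 ± 1.37 CPM in FAPs at passage 8 (n = 9 for both).

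Of the 9 genes that shed or mature the ligands, 2 rose and 3 fell in FAPs from muscle to passage 0, with a median log2 fold change of -0.46 beside 0.03 over all genes, of which 43.4% were called. ADAM12, a metalloprotease, rose from 3.87 to 19.8 CPM (log2 fold change 2.30, SE 0.31) and RHBDF2, the iRhom that brings ADAM17 to the surface, from 2.91 to 10.3 CPM. ADAM19 fell from 57.9 to 2.63 CPM and ADAM15 from 60.7 to 3.58 CPM. ADAM17 itself, the main sheddase of AREG, EREG and HBEGF, was not called in any comparison that tested it. In SCs, 2 of 3 tested fell, among them ADAM10, the sheddase of BTC, from 276 to 85.5 CPM (log2 fold change -1.76, SE 0.11, adjusted p = 3.22e-13). Over all genes 34.3% were called in SCs. In VECs 1 of 7 tested rose, RHBDF2, and 2 fell, ADAM15 and ADAM10, near the 35.1% called over all genes.

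Only 2 of the 9, ADAM10 and ADAM9, were tested in SMMCs and in monocytes/macrophages, and neither was called, beside 36.4% and 34.6% of all genes. In monocytes/macrophages both passed the p threshold but not the size, ADAM10 with a log2 fold change of -0.58 (adjusted p = 0.00937) and ADAM9 with 0.57 (adjusted p = 0.0139). In LECs the 1 gene tested, ADAM10, fell, beside 29.6% of all genes called. From passage 0 to passage 2, 2 of 9 rose in FAPs and 2 of 9 in SCs, ADAM15 and ADAM19 in each, beside 19.3% and 10.0% of all genes called. ADAM15 came to 19.8 CPM in FAPs and 33.6 CPM in SCs.

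Of 9 adaptors that link the receptors to RAS and PI3K, 4 fell and none rose in FAPs from muscle to passage 0, with a median of -0.97. This share of the list was near the 43.4% called over all genes. GAB1, a docking protein of EGFR, fell from 79.4 to 9.52 CPM (log2 fold change -2.97, SE 0.17), and PIK3R1, the regulatory subunit of PI3K, from 111 to 14.5 CPM. In SCs 3 of 7 tested fell, GAB1, PIK3R1 and SOS2, with a median of -0.37 beside -0.01 over all genes, of which 34.3% were called. In VECs 3 of 9 fell and 1 rose, GRB2, from 65.8 to 132 CPM, beside 35.1% of all genes called. SMMCs had 2 of 5 lower (36.4% of all genes called), LECs 2 of 4 lower (29.6%) and monocytes/macrophages 1 of 3 higher, PTPN11 (34.6%). Later only PIK3R1 was called, higher in FAPs at passage 2, as 1 of 9 tested beside 19.3% of all genes called.

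Of the 13 inhibitors of the pathway, 8 were tested in FAPs from muscle to passage 0. There 7 of the 8 fell and none rose, with a median log2 fold change of -2.11, beside 43.4% called over all genes. SPRY1, a Sprouty antagonist of RAS-MAPK signalling, fell from 546 to 21.7 CPM (log2 fold change -4.51, SE 0.16), SPRY2 from 580.3 to 36.4 CPM, and LRIG3 from 38.7 to 2.77 CPM. In SCs 3 of 5 tested fell, SPRY1 from 370 to 29.1 CPM, ERRFI1, a direct inhibitor of EGFR, from 59.4 to 17.6 CPM, and DUSP6, an ERK phosphatase, from 62.6 to 22.0 CPM. These 3 of 5 stood beside 34.3% of all genes called. VECs had 3 of 4 lower (35.1% of all genes called), SMMCs 5 of 5 (36.4%), monocytes/macrophages 1 of 1 (34.6%) and LECs 0 of 1 (29.6%).

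From passage 0 to passage 2, 5 of 13 inhibitors fell in FAPs, beside 19.3% of all genes called, among them DUSP6 from 27.3 to 15.3 CPM. In SCs 2 of 10 tested rose, beside 10.0% of all genes called, ERRFI1 from 17.6 to 45.1 CPM and LRIG3 from 2.18 to 7.38 CPM, and DUSP6 rose in SCs at passage 5, from 19.9 to 51.5 CPM (log2 fold change 1.36, SE 0.21, adjusted p = 0.00373), as 1 of 10 tested beside 0.440% of all genes called. Whether the 2 cell types differed in these genes was not tested.

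**Figure D4:**
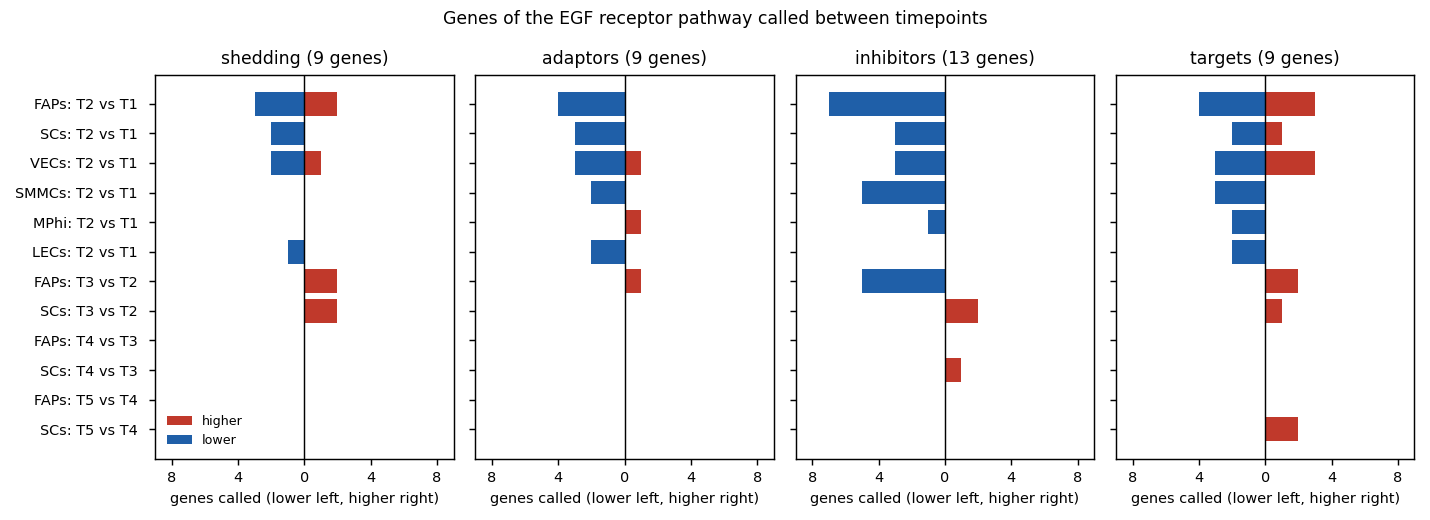
Genes of 4 lists called higher (red, to the right) or lower (blue, to the left) in each of the 12 comparisons, with the number of genes in the list above each panel. The inhibitors show 7 lower and 0 higher in FAPs at passage 0, and few genes of any list are called after Timepoint 3.

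The transcriptional targets were mixed. In FAPs 3 of 8 tested rose from muscle to passage 0, FOSL1 (from 0.116 to 22.0 CPM), CCND1, which encodes cyclin D1, and PHLDA1, and 4 fell, with FOS from 1089 to 13.3 CPM as the largest, beside 43.4% of all genes called. In SCs 1 of 5 rose (PHLDA1) and 2 fell (FOS and EGR1), beside 34.3%. VECs had 3 of 7 higher and 3 lower (35.1% of all genes called) and SMMCs 3 of 6 lower (36.4%). Monocytes/macrophages had 2 of 5 lower and LECs 2 of 6 lower, near the 34.6% and 29.6% called over all genes. At passage 2 CCND1 rose in SCs from 32.9 to 547 CPM (log2 fold change 4.13, SE 0.23, adjusted p = 3.61e-10) and in FAPs from 102 to 293 CPM, and FOS rose in FAPs. These were 1 of 8 tested in SCs and 2 of 9 in FAPs, near the 10.0% and 19.3% called over all genes. At passage 8, 2 of 7 tested rose in SCs, PHLDA1 and IER3, beside 0.456% of all genes called.

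Early response genes, which cell dissociation also induces and 2 of which (FOS and EGR1) are among the targets, moved with the step from muscle to culture. Their summed level over 12 genes was 16418 to 38614 CPM in muscle SCs and 813 to 1083 CPM at passage 0, and 5820 to 13543 and 747 to 957 CPM in FAPs. Of the 11 tested, 11 fell in FAPs, SCs, VECs and monocytes/macrophages each, and 10 in SMMCs and LECs each. Over all genes, 43.4%, 34.3%, 35.1%, 34.6%, 36.4% and 29.6% were called in these types in the same order. The part of these early response genes in the fall of HBEGF or of the inhibitors was not tested. Muscle fibre genes summed to 1108 to 1797 CPM in muscle FAPs and 561 to 1725 CPM in muscle SCs, with none of 12 at 0, and to at most 2.86 and 6.07 CPM at passage 0. In culture they were higher again in SCs, with medians of 895 CPM (41.9 to 2679) at Timepoint 3, 2198 CPM (78.0 to 7383) at Timepoint 4 and 1911 CPM (1086 to 10804) at Timepoint 5. Of 3 tested in SCs at passage 2, 3 rose, among them MYLPF, a myosin light chain, from 0.559 to 602 CPM, beside 10.0% of all genes called. In FAPs 4 of 4 tested rose at passage 2, beside 19.3% of all genes called, and the sum reached at most 79.8 CPM at Timepoint 5. In both cell types the genes tested at this step were too low at passage 0 for the low-count filter and passed only through passage 2. A rise was thus close to fixed in advance, and these counts are not read against the shares over all genes. The part of free RNA in the muscle levels of the members was not tested.

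Over 19 combinations of cell type and timepoint, the genes whose mean log2(CPM + 1) was most like that of EREG, among 11782 genes, were GPR84, MFSD2A and PKM (Pearson r = 0.95, 0.94 and 0.93). For AREG they were CCL17, NAIP and ACAA1 (0.88, 0.85 and 0.85), and for HBEGF BLA-DQB, CCSER1 and PATL1 (0.94, 0.92 and 0.90). For BTC they were PM20D2, EPHB6 and AQP4 (0.88, 0.88 and 0.86), and for EGFR PCOLCE2, CPQ and DDIT4L (0.92, 0.91 and 0.90). ERBB2 was nearest to PIP4P2, TRPT1 and RIMKLB (0.95, 0.93 and 0.92), and ERBB3 to FGFR4, MYOD1 and CBLN4 (0.94, 0.94 and 0.92), where MYOD1 is a myogenic factor. Glial cells, neutrophils, myocytes and tenocytes had fewer than 3 donor levels and were not among the 19. The highest pooled levels of ERBB3 (glial cells) and AREG (neutrophils) thus did not enter. The points share libraries and depth, and these values are descriptions.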

How the data were processed

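Droplet 3′ single-cell RNA-seq was deposited as raw UMI counts per gene and barcode, made by the authors with Cell Ranger 6.0.1 on genome build ARS-UCD1.2. The authors' table of cells that passed their quality control gave the library, donor (demuxlet on genotypes) and cell type of each cell. These cell labels are the other deposited values used; a further 67 columns of the authors' cell tables and a table of corrected counts were not used. Every cell in the table was marked as a single cell by genotype, so doublets of 2 donors had been removed, and none were sought here. UMI counts were summed per donor, cell type and timepoint, and sums of at least 10 cells were kept. Donors were the replicates. Second sequencing runs of a timepoint share the library and were not counted apart.

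Timepoints were compared within a cell type with edgeR 4.0.16 (TMM, filterByExpr, robust glmQLFit, Benjamini-Hochberg over all genes) under R 4.3.3, tested on simulated counts first. DESeq2 1.42.0, other size factors, no filter, thinning, donor as a block, subsets of donors and sums of at least 30 cells were alternatives. The difference of 2 cell types' changes was added after seeing the data, as were the subsets of donors at Timepoints 4 and 5. Donors are the same animals, so numbers pair the samples; same-donor deviations correlated with r from -0.16 to 0.36 up to Timepoint 3 and from 0.09 to 0.79 later. Donors were pooled per library, so p-values measure the spread between animals within these libraries.

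The 8 members, the gene lists and the tests were chosen with earlier results of these data known. Named are the members, up to 3 called genes per list, comparison and direction by size of change, and the 3 genes most like each member that reached 5 CPM. Shares of cells used numpy and scipy, with exact intervals and thinning to 2000 UMIs. Depth per group of cells ranged from 56121 to 31783784 UMIs in the comparisons.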

Additional observations from a re-analysis of the deposited data

Results flagged for a closer look

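In 52 groups of 4 to 10 donors with a mean of at least 5 CPM, 10 values lay far from the others of their group. They came from donors 2, 4, 6, 8 and 9. The rule flags about 1 in 20 groups of normally distributed values. Several groups here held donors with no count, so the number flagged is not compared with that rate. In muscle monocytes/macrophages the flagged values were donor 2 for EREG (92.1 CPM, 17 UMIs) and donor 4 for AREG (502 CPM, 155 UMIs). Donor 4 also stood out for AREG in SCs at Timepoint 3 (17.9 CPM). In muscle, donor 6 was apart for HBEGF in SMMCs (28.7 CPM, 3 UMIs) and donor 9 for HBEGF in VECs (65.5 CPM, 15 UMIs). Donor 8 was apart for BTC in muscle SMMCs (45.7 CPM, 7 UMIs). Donor 8 was apart for EGFR in SCs at Timepoint 2 (10.5 CPM) and for ERBB3 in SCs at Timepoint 3 (26.4 CPM). For ERBB2 in FAPs, donor 6 was low at Timepoint 4 (4.52 CPM) and donor 9 at Timepoint 5 (6.60 CPM).

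In 3 cases the change differed between 2 cell types by a test of the difference itself, on the log2 scale. From muscle to passage 0, EGFR differed by 1.77 (SCs minus FAPs), where the SCs alone did not pass the low-count filter, and HBEGF by 5.20 (VECs minus monocytes/macrophages). From passage 0 to passage 2, EREG differed by -2.27 (SCs minus FAPs). For BTC from muscle to passage 0 the fitted difference was -2.87 (SCs minus FAPs), but BTC entered that fit only through SCs. FAPs held 7 BTC UMIs in muscle and 17 at passage 0, so this value is given without its test.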

How the results depend on the processing

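The genes called from muscle to passage 0 in FAPs, SCs, VECs, SMMCs, monocytes/macrophages and LECs rose with no filter to 6925, 5286, 5030, 4216, 3389 and 1863, and fell with counts thinned to the smallest total to 1629, 532, 1179, 491, 478 and 342. From passage 0 to 2 they were 3501 (FAPs) and 2097 (SCs) with no filter, and 527 and 365 thinned. From passage 2 to 5, FAPs had 125 with DESeq2, 434 with donor as a replicate block, 9 thinned and 318 in unsorted cultures only; SCs had 81, 231, 8 thinned and 367 in sorted SC cultures only. From passage 5 to 8, FAPs had 75, 120, 13 and 7 under the same 4 settings, and SCs 75, 97, 17 and 19. Without 1 donor, SCs at this last step gave 9 to 29 (9 without donor 6, 19 without donor 1 or 5, 20 without donor 9 and 22 without donor 2), and LECs at passage 0 gave 650 to 935. The cause was not tested, beyond the fewer counts of thinning and the genes added without a filter.

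Among members, EREG in FAPs from passage 2 to 5 turned to -0.14 thinned and -0.27 in sorted FAP cultures, ERBB2 in SCs turned to -0.16 in unsorted cultures, and the difference of BTC changes to passage 2 turned to 0.26 with the block; none was a call. At passage 2, the block made AREG in FAPs a call (-1.05) and sorted FAP cultures did so for EGFR (1.29). In those cultures ERBB2 lost its call (0.93). EREG in FAPs passed with no filter (1.01) and in unsorted cultures (1.08). To passage 5, ERBB3 in SCs passed in unsorted cultures (2.05), and to passage 8 EREG in SCs passed with DESeq2 (1.36) and in sorted SC cultures (1.72). Apart from these and the changes given with the results, the paired fit with the block changed no call of a member. All 120 member levels moved by less than 1 SD with sums of at least 30 cells. With thinning, 7 member changes kept their direction and call and 1 turned, where other size factors kept 30. The remaining member changes did not pass the filter after thinning and could not be checked at equal depth. The low-count filter left TGFA untested in every comparison and all members untested in SMMCs and LECs.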
